A study of Rattus norvegicus with 4 samples.

Results

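Expression of 10 genes that regulate Schwann cell stage, from 4 families, was followed in rat S16 cells. These genes are the POU factors Pou3f1 and Pou3f2, the zinc finger repressors Zeb1 and Zeb2, the AP-2 factors Tfap2a and Tfap2b, and the inhibitors of differentiation Id1, Id2, Id3 and Id4. Members were the genes listed under these symbols, and all 10 were found among the 30708 genes of each library. S16 cells are an immortalized line of rat Schwann cells. Poly(A) RNA-Seq was performed on 2 unmodified populations of it, which carried no deletion and received no treatment. The passage 9 population was the line from which cells deleted for the enhancer rSOX-4 were derived, and the passage 39 population was an older passage of S16. Each population has 2 libraries labelled as technical replicates, named here by passage and by the replicate number of the title. The populations are cultures of 1 line, and each passage is represented by a single population.

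These families act at successive steps of the Schwann cell lineage. In the nerve, Pou3f1 (Oct6, SCIP) and its close relative Pou3f2 (Brn2) are expressed in promyelinating cells and, together with Sox10, activate Egr2, the master regulator of myelination. Zeb2 is a repressor that recruits the NuRD corepressor complex and is needed for Schwann cells to leave the immature state, and Zeb1 is its closest relative. Tfap2a is an AP-2 factor of the neural crest and of Schwann cell precursors, and its loss accompanies the step to immature Schwann cells. Id proteins carry the helix-loop-helix domain without a basic region, so that they bind E proteins and keep them from DNA. Id genes are classical targets of BMP signalling through Smad1, Smad5 and Smad9.

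The libraries did not group by passage. For 9670 of the 11025 genes whose mean reached 1 RPKM, or 87.7%, the libraries numbered 2 in both passages lay on one side of both libraries numbered 1, whereas the libraries of passage 39 and passage 9 were separated in this way for 685 genes, or 6.21%. RPKM is reads per kilobase of gene per 1000000 reads. The totals recovered from the RPKM values were between 34246093 and 41382234 reads per library. The study's methods state fewer reads per cell line than the libraries of a passage sum to here, and this gap was not resolved. Results are therefore given per library, by replicate number and by passage, and the methods say that technical replicates were pooled and run over 2 sequencing lanes, without saying whether the number marks a library preparation or a lane. The label calls the cells myelinating Schwann cells. Of 9 myelinating markers, 8 had a mean of at least 1 RPKM, among them Mag, a myelin-associated adhesion molecule, at 69.4 ± 0.146 RPKM (mean ± SD, n = 2 populations), and Gjb1 did not (0.0171 to 0.245 RPKM). Single libraries of Mag ran from 60.2 to 78.4 RPKM, a spread between the numbers that the SD of population means leaves out. The precursor and immature markers Sox10 (176.1 ± 3.75 RPKM) and Ngfr (283.0 ± 3.68 RPKM) were also present, while Gap43 and Fabp7 were listed at 0.

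Levels spanned from Id3, ranked 297 of 30708 genes, down to Pou3f1, ranked 13507. The mean was 151.4 ± 3.22 RPKM for Id3, 50.3 ± 0.490 for Zeb2, 45.5 ± 2.09 for Id1 and 36.4 ± 0.388 for Id2 (mean ± SD, n = 2 populations, as for all means here). Below these stood Tfap2b at 18.6 ± 0.126 RPKM, Id4 at 13.4 ± 0.0977, Zeb1 at 12.6 ± 0.00693 and Tfap2a at 11.2 ± 0.150. The POU factors came last, with 3.11 ± 0.205 RPKM for Pou3f2 and 0.148 ± 0.016 for Pou3f1. Of the neighbours in this order, Id3 and Zeb2, Id2 and Tfap2b, Tfap2b and Id4, Tfap2a and Pou3f2, and Pou3f2 and Pou3f1 had ranges over the libraries that did not overlap. The ranges of Zeb2 and Id1, Id1 and Id2, Id4 and Zeb1, and Zeb1 and Tfap2a overlapped. Id1 was above Id2 in each of the 4 libraries, though their counting intervals overlapped in both libraries numbered 1. Zeb2 was above Id1 in both libraries numbered 1 and below it in both numbered 2, and Zeb1 changed places with Id4 and with Tfap2a in the same way. RPKM is scaled per gene length, so these levels may be compared between genes.

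**Figure D1:**
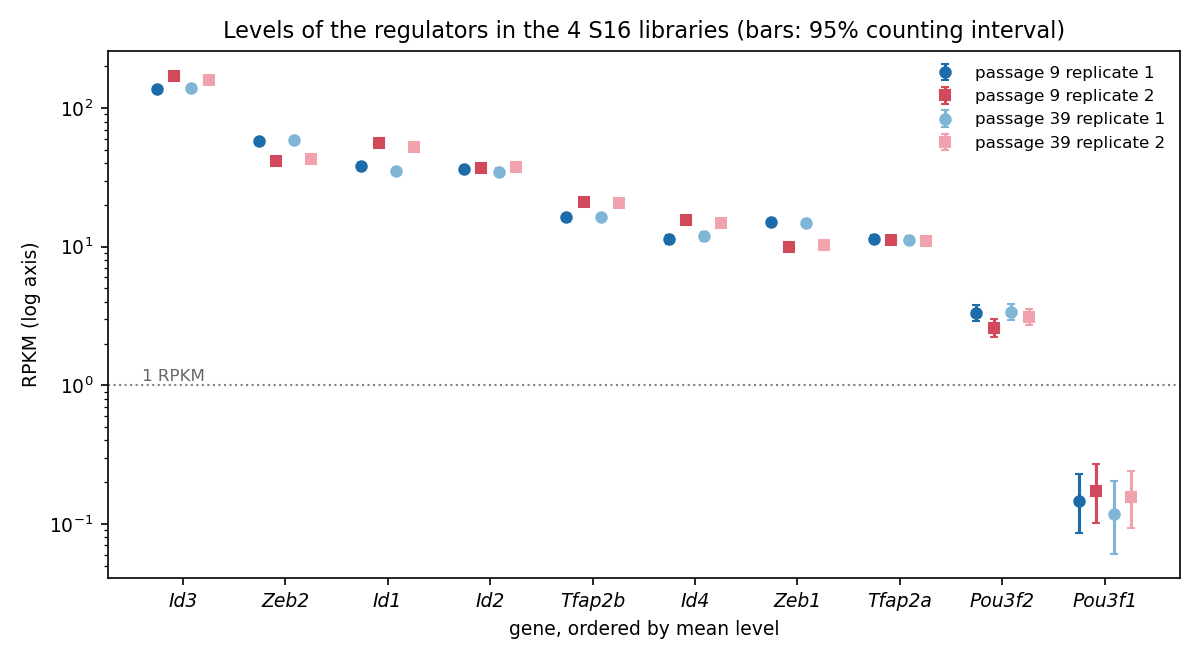
RPKM of each of the 10 regulators (log axis) in the 4 libraries, ordered by mean level; circles are the libraries numbered 1, squares those numbered 2, and bars are exact 95% counting intervals from recovered reads. Pou3f1 lies at no more than 0.172 RPKM in every library, and Zeb2 and Zeb1 differ from Id1 and Id4 in the direction of the gap between circles and squares.

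Libraries were compared on the log2(RPKM + 1) scale with limma, over the 11025 genes whose mean reached 1 RPKM. On this scale the change of a weakly expressed gene is understated. The number contrast, libraries numbered 2 minus libraries numbered 1, asked how far libraries labelled as technical replicates differed. The passage contrast asked whether the older population differed from the parental one. Of the 10 members 9 passed the filter, and Pou3f1 did not. In the number contrast 8 of the 9 tested members passed an adjusted p of 0.05, against 74.1% of all genes. Of these, 5 (Tfap2b, Id1, Id2, Id3 and Id4) were higher in the libraries numbered 2, where 49.7% of all genes were, and 3 (Pou3f2, Zeb1 and Zeb2) were lower, where 24.4% of all genes were. All 9 were separated between the numbers, beside 87.7% of all genes. Most genes thus differed between the numbers, and the members' counts are read against these shares. The median size of the difference was 0.34 over the 9 members and 0.21 over all genes, on the log2 scale. None of the 9 differed by 2-fold, as 1.1% of all genes did. The split of the calls rests on the scaling. As deposited, 67.1% of the called genes were higher in the libraries numbered 2 and the median of all genes was shifted by 0.10, whereas 43.8% were higher with libraries rescaled to a common sum and 49.8% with median ratio scaling. Among the members, both other scalings gave 4 higher (Tfap2b, Id1, Id3 and Id4), 4 lower (Pou3f2, Zeb1, Zeb2 and Tfap2a) and 1 not called (Id2). In RNA from whole cultures, fewer cells of a kind and less RNA per cell cannot be told apart.

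**Figure D2:**
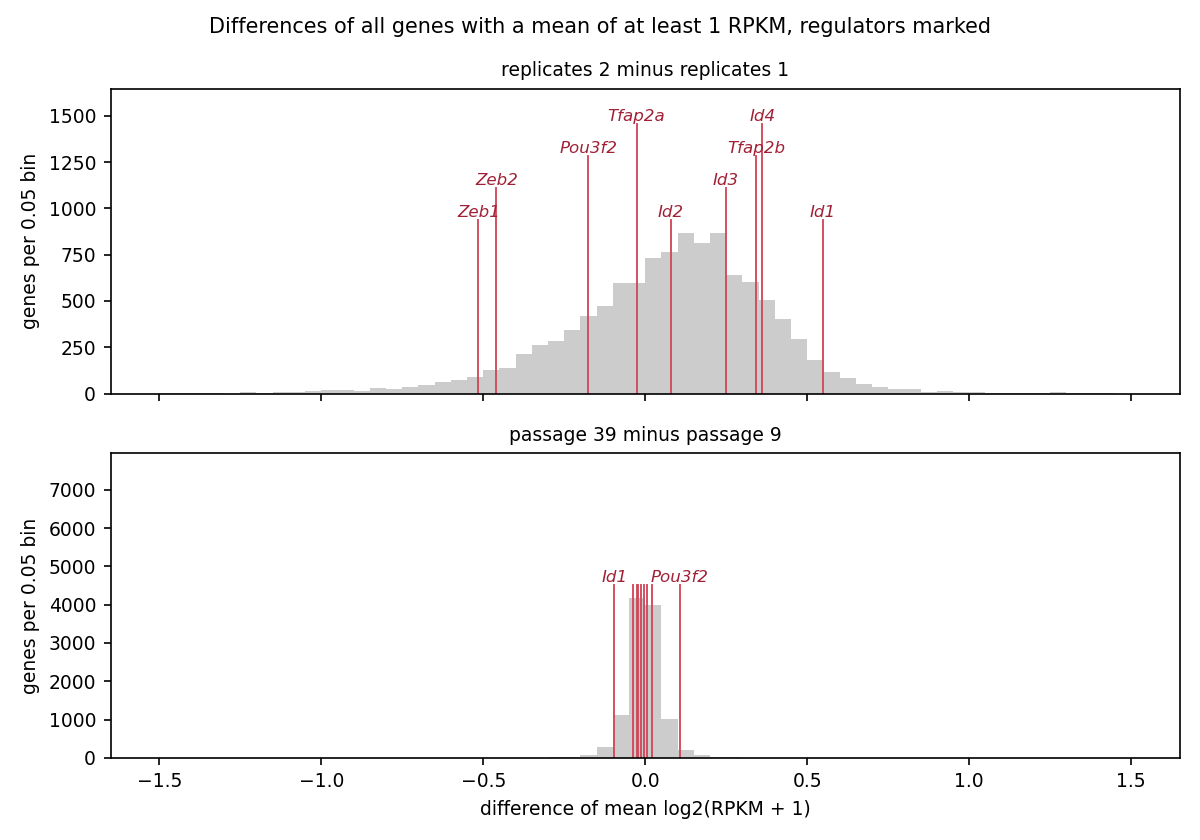
Differences of mean log2(RPKM + 1) for all genes whose mean reached 1 RPKM (grey, genes per bin of 0.05) with the 9 tested regulators as red lines, for the number contrast (top) and the passage contrast (bottom). The regulators run from -0.51 for Zeb1 to 0.55 for Id1 in the number contrast and from -0.095 for Id1 to 0.11 for Pou3f2 in the passage contrast; 39 genes lie outside the plotted range at the top.

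Of the POU factors of the promyelinating stage, Pou3f2 was present at a low level and Pou3f1 at a trace. Pou3f1 was at 0.146 and 0.172 RPKM in passage 9 replicates 1 and 2 and at 0.118 and 0.155 RPKM in passage 39 replicates 1 and 2. These values rest on 18, 18, 12 and 19 reads, and their counting intervals all overlap, so no difference was detectable at this depth. The ratio of replicate 2 to replicate 1 was 1.18 (95% interval 0.579 to 2.40) in passage 9 and 1.32 (0.608 to 2.98) in passage 39. Pou3f2 was at 3.33, 2.60, 3.38 and 3.13 RPKM in the same order of libraries. It was lower in both libraries numbered 2, by 0.18 on the log2 scale (log2 difference -0.18 ± 0.063, SE; limma adjusted p = 0.0325). Its ratio of replicate 2 to replicate 1 was below 1 in passage 9 (0.781, 0.639 to 0.954) but not resolved from 1 in passage 39 (0.924, 0.764 to 1.12). The call did not hold without the filter on low values (limma adjusted p = 0.117) or without passage 9 replicate 1 (0.0504), passage 9 replicate 2 (0.311, log2 difference -0.078) or passage 39 replicate 1 (0.0769), and the difference was -0.27 without passage 39 replicate 2. Pou3f2 stood at 21.1 times the level of Pou3f1 on average, between 15.1 and 28.8 times in single libraries. Of 12 other POU genes, only Pou6f1 had a mean of at least 1 RPKM, and it was higher in the libraries numbered 2 (log2 difference 0.25 ± 0.069; limma adjusted p = 0.0107), a call that did not hold with a common sum (limma adjusted p = 0.0693). The neural paralogues Pou3f3, at most 0.0116 RPKM, and Pou3f4, listed at 0, were near or at 0 in all 4 libraries.

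Both Zeb repressors were lower in the libraries numbered 2. Zeb2 was at 58.2 and 41.7 RPKM in passage 9 replicates 1 and 2 and at 58.5 and 42.7 RPKM in passage 39 replicates 1 and 2. Zeb1 was at 15.1, 10.01, 14.8 and 10.3 RPKM in this order. For both genes the libraries numbered 1 lay close together and well above those numbered 2, in each passage. The log2 difference was -0.46 ± 0.024 for Zeb2 (SE; limma adjusted p = 1.17e-06) and -0.51 ± 0.037 for Zeb1 (limma adjusted p = 5.81e-06). The ratio of replicate 2 to replicate 1 was 0.716 (95% interval 0.701 to 0.731) in passage 9 and 0.729 (0.714 to 0.745) in passage 39 for Zeb2. For Zeb1 it was 0.663 (0.615 to 0.715) and 0.697 (0.647 to 0.751). Intervals below 1 in both passages were found for these 2 members of the 9, and for 21.6% of all genes. Because the difference varies with gene length in these libraries, each member was also set against the 200 genes nearest in recovered length. Genes as long as Zeb2 (9445 bp) had a median difference of -0.20, which leaves -0.26 for Zeb2, and genes as long as Zeb1 (3069 bp) had a median of 0.11, which leaves -0.62 for Zeb1. The Zeb2 to Zeb1 ratio moved little, from 3.86 and 4.16 in passage 9 to 3.95 and 4.14 in passage 39. Counting ignored strand, so reads from transcripts antisense to a gene cannot be told from its own.

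Corepressors of the Zeb factors gave calls in both directions, as did genes at large, whereas the few tested genes below these factors gave none higher. Of 15 corepressors, the NuRD subunits and CtBP proteins through which Zeb factors repress, all had a mean of at least 1 RPKM. Of these, 8 were higher in the libraries numbered 2, 2 were lower and 5 did not pass the test. Of all genes 49.7% were higher and 24.4% lower. The median difference of the corepressors was 0.12, beside 0.10 for all genes. With a common sum 4 corepressors were higher and 6 lower, beside 3270 and 4204 of all 11025 genes. With median ratio scaling 4 corepressors were higher and 6 lower, beside 3778 and 3811 of all genes. The largest differences were those of the NuRD subunits Mta1 (0.42 ± 0.026; limma adjusted p = 2.97e-06) and Mbd3 (0.37 ± 0.023) and of the corepressor Ctbp1 (0.33 ± 0.032). The NuRD ATPase Chd4 was lower (-0.19 ± 0.023). These 4 genes kept their direction and call with both other scalings. Among 10 genes known as repressed by Zeb factors, 3 had a mean of at least 1 RPKM. Of these, 0 were higher in the libraries numbered 2, 2 were lower and 1 did not pass the test, also with both other scalings. The endothelin receptor Ednrb, an inhibitor of myelination that Zeb2 represses in Schwann cells, was at 21.2 and 4.27 RPKM in passage 9 and at 21.7 and 4.33 RPKM in passage 39. It was lower in the libraries numbered 2 by over 2-fold (log2 difference -2.08 ± 0.037). Zeb2 was lower there as well, and a link between their differences was not tested. Hey2, a Notch effector, was also lower (-0.28 ± 0.053), and Sox2, a factor of the immature state, did not pass the test (0.058 ± 0.034; limma adjusted p = 0.153) and stood at -0.087 with a common sum. The epithelial cadherin Cdh1, below the filter, was at 1.15, 0.175, 1.19 and 0.105 RPKM in the order of libraries above. Of the other regulators of the epithelial to mesenchymal transition, Snai2 was at 62.5 ± 0.116 RPKM with no call (0.027 ± 0.028) but was called lower with a common sum (-0.12) and median ratio scaling (-0.085), and Twist1 was listed at 0.

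A short stretch around 1 annotated start of Zeb1 is shown since it holds the letters of an E-box that Zeb proteins can bind. Such a match is of letters only, and a link to the differences of the Zeb genes was not tested. RefSeq promoter windows of the GRCr8 assembly, from 250 bases before to 50 after the annotated start, were held for 7 of the 10 members, Pou3f1, Tfap2a and Tfap2b not being among them. The single E-box CACCTG was searched on both strands, and on the reverse strand it reads CAGGTG. It was found in the Zeb1 window at 95 bases before the start and at position 38 counted from the start base as 1, and in no other member's window. Among all 33469 promoter windows 18.8% held it. The whole upstream part of this window lies inside the annotated span of Zeb1, so that it is an internal start and not the outermost one. The stretch lies at chr17:56810731-56810760 of GRCr8 on the minus strand, and capitals mark the element.
Zeb1: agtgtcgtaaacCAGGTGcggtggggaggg

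The AP-2 factors parted. Tfap2a was at 11.4 and 11.2 RPKM in passage 9 replicates 1 and 2 and at 11.2 and 10.9 RPKM in passage 39. All 4 libraries lay close together, and the log2 difference between the numbers was -0.026 ± 0.036 (SE; limma adjusted p = 0.522). With the other scalings Tfap2a was lower in the libraries numbered 2, by 0.17 on the log2 scale with a common sum (log2 difference -0.17; limma adjusted p = 0.00503) and with median ratio scaling (-0.13; 0.0128). Tfap2b, its paralogue, was at 16.3, 21.1, 16.3 and 20.7 RPKM, higher in both libraries numbered 2. The log2 difference was 0.34 ± 0.031 (limma adjusted p = 2.02e-05), and the ratio of replicate 2 to replicate 1 was 1.30 (95% interval 1.25 to 1.35) in passage 9 and 1.27 (1.22 to 1.33) in passage 39. Genes as long as Tfap2b (7076 bp) had a median difference of -0.093, so that Tfap2b stood 0.44 above them. The Tfap2b to Tfap2a ratio was 1.43 and 1.46 in the libraries numbered 1 and 1.89 in both numbered 2.

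AP-2 paralogues and cofactors were read against the share of all genes higher in the libraries numbered 2, 49.7%. Of 8 genes, the other AP-2 paralogues and the CITED and KCTD proteins that activate or inhibit AP-2 factors, 5 had a mean of at least 1 RPKM, of which 4 were higher in the libraries numbered 2 and 1 did not pass the test. The median difference of the 5 was 0.35, beside 0.10 for all genes. With either other scaling 3 were higher, the call of Kctd1 being lost. Cited2, a coactivator of AP-2, was at 19.1 and 47.3 RPKM in passage 9 and at 18.9 and 46.8 RPKM in passage 39 (log2 difference 1.27 ± 0.026; limma adjusted p = 1.99e-08). Kctd15, an inhibitor of AP-2 activity, was also higher (0.60 ± 0.033), as were Cited1 (0.35 ± 0.062) and Kctd1 (0.16 ± 0.060). Tfap2c was listed at 0.0116 to 0.0233 RPKM.

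The Id genes were the most abundant family and, as deposited, all were called higher in the libraries numbered 2, to unequal degrees, though Id2 turned to the other direction with both other scalings. Promoter stretches of 3 Id genes are shown first, since the Id genes were measured together and their windows differ in the elements searched. Capitals mark the CCAAT box (CCAAT, or ATTGG where it lies on the reverse strand) and the TATA box (TATAAA) in Id1, the CCAAT box in Id2, and the AP-2 palindrome (GCCNNNGGC) in Id3. Searched on both strands, CCAAT was in 37.5% of all promoter windows, TATAAA in 14.2% and GCCNNNGGC in 15.1%. A match is a match of letters and not a shown binding site. In Id1 the CCAAT box lies 103 and the TATA box 59 bases before the start used. Of the 250 bases before the start, 211 in Id1 and 212 in Id3 lie outside the annotated gene span. The starts used for Id1 and Id3 are thus not the outermost ones. The Id1 stretch lies at chr3:161671441-161671524 (plus strand), the Id2 stretch at chr6:47471066-47471193 (minus strand) and the Id3 stretch at chr5:153656129-153656198 (plus strand), all on GRCr8.
Id1: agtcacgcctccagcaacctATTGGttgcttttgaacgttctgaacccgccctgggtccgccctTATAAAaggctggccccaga
Id2: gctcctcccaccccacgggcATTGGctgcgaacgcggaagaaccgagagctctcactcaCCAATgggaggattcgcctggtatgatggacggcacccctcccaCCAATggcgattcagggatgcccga
Id3: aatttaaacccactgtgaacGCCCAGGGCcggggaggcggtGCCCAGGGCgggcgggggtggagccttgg

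Id1 was at 38.3 and 55.8 RPKM in passage 9 replicates 1 and 2 and at 35.3 and 52.8 RPKM in passage 39. Both libraries numbered 2 stood well above both numbered 1, and the log2 difference of 0.55 ± 0.025 (SE; limma adjusted p = 6.07e-07) was among the largest 7.42% in size of all genes tested. The ratio of replicate 2 to replicate 1 was 1.46 (95% interval 1.372 to 1.546) in passage 9 and 1.49 (1.403 to 1.592) in passage 39. Id4 was at 11.3, 15.6, 11.9 and 14.7 RPKM, with a log2 difference of 0.36 ± 0.043 (limma adjusted p = 0.000106). Id3 was at 137.6, 169.7, 138.9 and 159.3 RPKM, with a log2 difference of 0.25 ± 0.026 (limma adjusted p = 5.64e-05). Id1, Id3, Id4 and Tfap2b are the 4 of 9 members with ratio intervals above 1 in both passages, as found for 41.6% of all genes. Id2, whose libraries were at 36.2, 37.0, 34.5 and 37.7 RPKM, hardly differed between the numbers. Its log2 difference of 0.079 ± 0.030 (limma adjusted p = 0.0422) turned to -0.065 with libraries rescaled to a common sum (limma adjusted p = 0.115) and to -0.032 with median ratio scaling (0.392). The call was also lost without the filter on low values (limma adjusted p = 0.0752), without passage 9 replicate 2 (0.0550), without passage 39 replicate 1 (0.291, log2 difference 0.044) and without passage 39 replicate 2 (0.141). Set against genes of similar length, which are short and had medians of 0.21 to 0.30, the difference was 0.34 for Id1 and 0.15 for Id4, but -0.0033 for Id3 and -0.22 for Id2.

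Together the Id genes summed to 223 and 278 RPKM in passage 9 replicates 1 and 2 and to 221 and 265 RPKM in passage 39. As deposited, all genes summed to 315847, 351061, 315995 and 348537 RPKM in the same order of libraries. Id3 made up 60.2% to 63.0% of the Id sum in each library, Id1 16.02% to 20.05%, Id2 13.3% to 16.2% and Id4 5.05% to 5.61%. The E proteins that Id proteins sequester are encoded by Tcf3, Tcf4 and Tcf12. Tcf3 (E2A), at 59.9 ± 1.09 RPKM, was the most abundant of them and higher in the libraries numbered 2 (log2 difference 0.27 ± 0.024; limma adjusted p = 2.25e-05). Tcf12 (HEB) was higher (0.11 ± 0.033; limma adjusted p = 0.0146), but stood at -0.025 with a common sum and had no call with either other scaling, and Tcf4 (E2-2) was lower, at 19.1, 12.7, 20.5 and 12.1 RPKM (-0.63 ± 0.044; limma adjusted p = 5.10e-06). The Id sum stood at 2.54 and 2.48 times the E protein sum in the libraries numbered 1 and at 2.91 and 2.89 times in those numbered 2. Of 14 other helix-loop-helix genes 8 had a mean of at least 1 RPKM. Of all genes 49.7% were higher and 24.4% lower (median difference 0.10). Of the 8 genes, 1 was higher, 4 were lower and 3 did not pass the test (median difference -0.13). With a common sum 5 of the 8 were lower, beside 4204 of all 11025 genes. Among these the factor Atoh8 was higher (0.39 ± 0.030), and the repressors Bhlhe40 (-0.31 ± 0.033) and Hey2 (-0.28 ± 0.053) were lower.

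The BMP pathway, the input of Id transcription, gave calls in both directions, as did genes at large. Of 17 genes 16 were listed and 10 had a mean of at least 1 RPKM. Of these 10, 3 were higher in the libraries numbered 2, 3 were lower and 4 did not pass the test (median difference -0.015). Of all genes 49.7% were higher and 24.4% lower (median difference 0.10). With a common sum 2 of the 10 were higher and 6 lower, beside 3270 and 4204 of all 11025 genes. With median ratio scaling 3 of the 10 were higher and 5 lower, beside 3778 and 3811 of all genes. The ligand Bmp6 was at 9.36 and 14.4 RPKM in passage 9 and at 9.60 and 14.2 RPKM in passage 39 (log2 difference 0.54 ± 0.036; limma adjusted p = 4.25e-06). The receptors Bmpr2 (-0.48 ± 0.035) and Bmpr1a (-0.38 ± 0.049) were lower. The inhibitory Smad6 (0.21 ± 0.036) and Smad7 (0.29 ± 0.038), themselves targets of the pathway, were higher, but Smad6 had no call with a common sum (limma adjusted p = 0.108). The signal-carrying Smad1 (-0.0018 ± 0.042) gave no call as deposited and was lower with a common sum (-0.14; limma adjusted p = 0.0240), and Smad5 was lower (-0.13 ± 0.034).

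**Figure D3:**
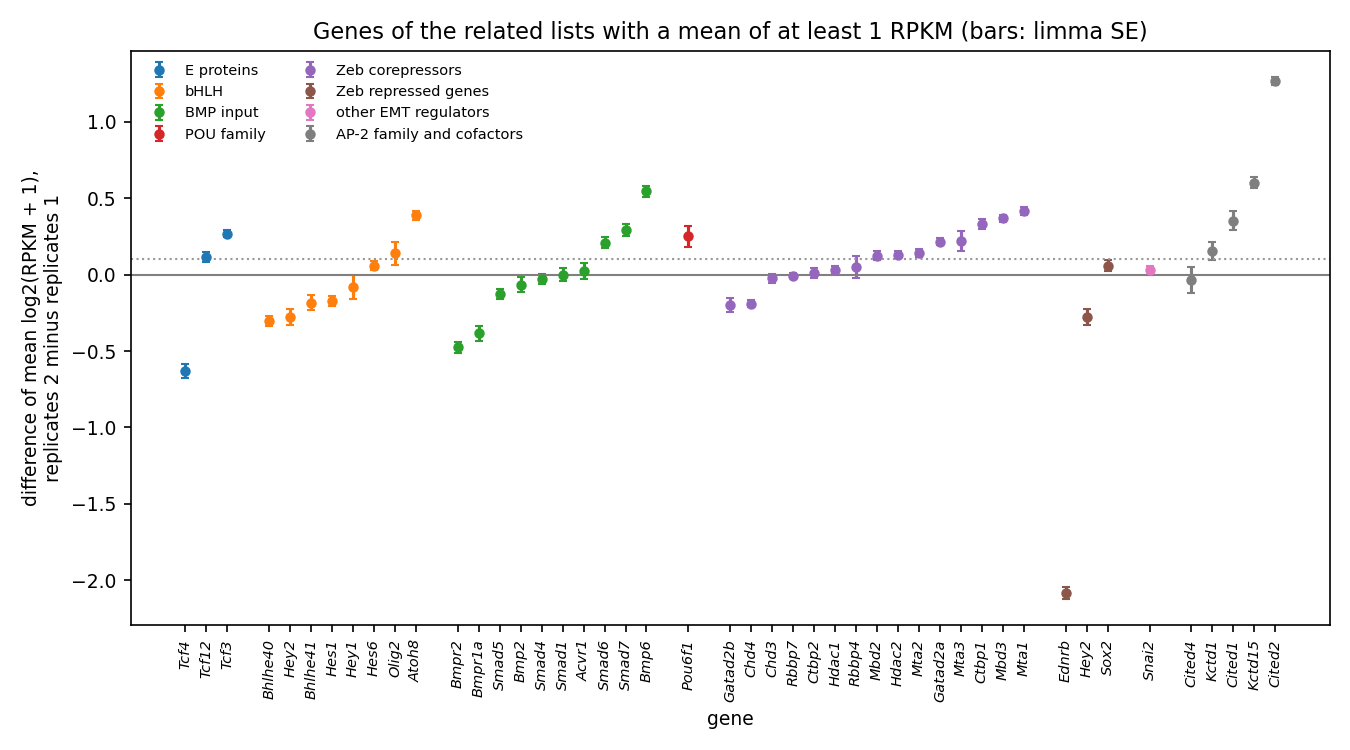
Difference of mean log2(RPKM + 1), libraries numbered 2 minus libraries numbered 1, for genes of 8 related lists whose mean reached 1 RPKM; points are coloured by list, bars are limma SE, and the dotted line is the median of all genes, 0.10. Ednrb at -2.08 and Cited2 at 1.27 are the only genes of these lists past 2-fold, and Tcf4 lies apart from the other E proteins.

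Between the passages the members differed less in size than between the replicate numbers. With limma, 0 of the 9 tested members and 0 of the 11025 genes (0%) passed the test between passage 39 and passage 9, and 3 genes had an unadjusted p under 0.05. This fit leaves the difference between the numbers in its residual spread, and with the replicate number as a block 643 genes had an unadjusted p under 0.05, 1 gene passed after adjustment and 0 members did. The members' median size of difference was 0.023 on the log2 scale, beside 0.34 in the number contrast, and that of all genes was 0.027. The largest of the members were those of Pou3f2 (0.11) and Id1 (-0.095), and for Id1 both passage 39 libraries were below the passage 9 library of the same number. The libraries of the passages overlapped for all 9 members, whereas 6.21% of all genes did not overlap. This overlap follows from the separation of all 9 by number, since each passage holds 1 library of each number. It is therefore no measure of their likeness between passages. Compared within a number, the ratio of passage 39 to passage 9 had a 95% interval beside 1 in at least 1 number for 3 of the 9 members, as for 14.3% of all genes. Id1 was at 0.923 times its passage 9 level (0.862 to 0.987) in the libraries numbered 1 and at 0.947 times (0.896 to 1.001) in those numbered 2. Id3 was at 1.01 times (0.970 to 1.051) and 0.939 times (0.905 to 0.973), and Zeb2 at 1.01 times (0.987 to 1.03) and 1.03 times (1.002 to 1.049). No member had intervals on the same side of 1 in both numbers, as 0.444% of all genes did. With the replicate number as a block, Id1 had an unadjusted p of 0.00477 by limma but an adjusted p of 0.707. For the other 6 members the ratios lay between 0.943 (Id4) and 1.20 (Pou3f2, 0.982 to 1.47) and every interval held 1, also for Pou3f1, at 0.806 (0.354 to 1.77) and 0.902 (0.448 to 1.82).

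**Figure D4:**
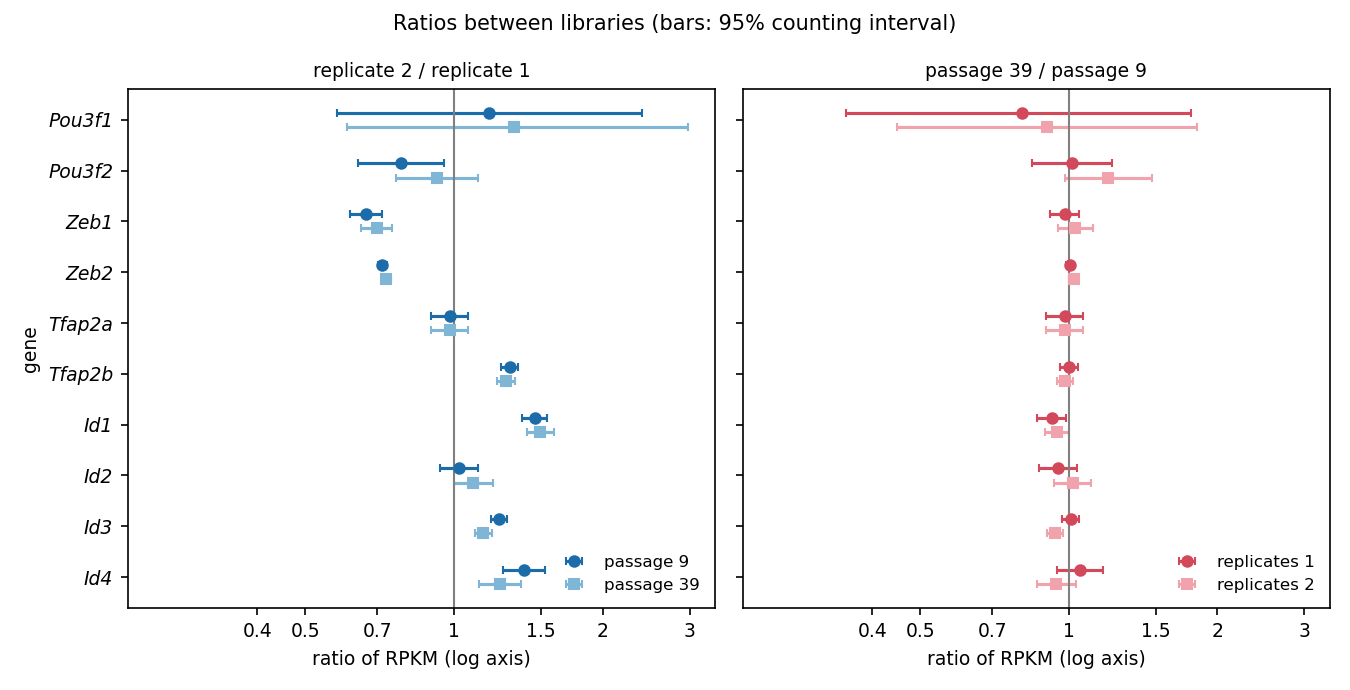
Ratios of RPKM (log axis) for each regulator, replicate 2 over replicate 1 within each passage (left) and passage 39 over passage 9 within each replicate number (right); bars are exact 95% counting intervals of the ratio. On the left Zeb1 and Zeb2 lie below 1 and Tfap2b, Id1, Id3 and Id4 above 1 in both passages; on the right all ratios but those of the sparse Pou3f1 and Pou3f2 lie within 0.923 to 1.054.

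Markers of the Schwann lineage and of other cells also moved with the number, and their part in the members' differences was not tested. Over all genes 49.7% were higher and 24.4% lower in the libraries numbered 2, against which the counts that follow are read. The list sums are as deposited. The RPKM of all genes summed to 315847 and 315995 in the libraries numbered 1, against 351061 and 348537 in those numbered 2. Of 10 precursor and immature markers with a mean of at least 1 RPKM, 8 were lower in the libraries numbered 2 and 1, Sox10, was higher (but lower with both other scalings), and the list of 13 summed to 930 to 935 RPKM in the libraries numbered 1 and to 784 to 802 in those numbered 2. Of 8 such myelinating markers 6 were lower and 2, Egr2 and Pmp22, were higher. Egr2 had a log2 difference of 0.73 ± 0.040, or 0.65 with a common sum and 0.63 with median ratio scaling. Pmp22 was called lower with a common sum. The list of 9 summed to 1475 to 1487 RPKM against 1427 to 1434. Fibroblast genes, 10 in all, summed to 3471 to 3485 RPKM against 3865 to 3972, nearly all of it Col1a1. The log2 difference of Col1a1 was 0.19 as deposited and 0.043 with a common sum. Of the 10 genes 5 had a mean of at least 1 RPKM, with 3 higher (2 with either other scaling) and 2 lower, whereas Thy1 was listed at 0 and Dcn at no more than 0.0132 RPKM. The 10 neuron genes summed to 144 to 148 RPKM against 99.6 to 102, all but a trace from the neurofilaments Nefl and Nefm, both lower, while Syt1, Stmn2 and Elavl4 were listed at 0. Of 6 melanocyte genes 2 had a mean of at least 1 RPKM and 0 were called, or 1 lower with either other scaling (11.7 to 11.9 against 11.0 to 11.7 RPKM, Tyr at 0). Of 6 macrophage genes 2 did and 1 was higher (2.82 to 2.85 against 3.32 to 3.34 RPKM, Ptprc and Itgam at 0). None of 5 endothelial genes did (0.692 to 0.798 against 0.778 to 0.780 RPKM, Cdh5 and Kdr at 0).

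Genes with a pattern over the 4 libraries most like that of Id1 and of Tfap2a, the members with the largest and the smallest difference between the numbers as deposited, were found by Euclidean distance of centred log2(RPKM + 1). The 3 nearest to Id1 were Atp5g1 (distance 0.0166), Tnfsf9 (0.0197) and LOC100909598 (0.0205), and 203 genes lay within 0.1. The 3 nearest to Tfap2a were LOC689408 (0.00231), Zfyve1 (0.00675) and Cirbp (0.0073), and 1801 genes lay within 0.1. With 4 libraries such likeness is shared by many genes.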

How the data were processed

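Gene expression was measured in 4 poly(A) RNA-Seq libraries, 2 each of passage 9 and passage 39 S16 cells. Per the study's methods, the authors made TruSeq libraries from TRIzol RNA, sequenced 50 bp single ends, aligned them to the rat Rnor_5.0 (rn5) genome with STAR, kept reads that mapped uniquely and, with HTSeq, counted reads of either strand for each gene. The authors deposited RPKM values, 1 per gene symbol. The gene lengths and totals behind the RPKM values and the tool versions are not given in the sources used here, and the gene models are named as Ensembl in the methods and as RefSeq with the files.

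Differences of log2(RPKM + 1) were tested with limma 3.58.1 (R 4.3.3) with a trend on mean level and Benjamini-Hochberg adjustment over the 11025 genes whose mean reached 1 RPKM. The number contrast had passage as a block, which leaves 1 residual degree of freedom per gene before limma's moderation, and the passage contrast had no block. With 1 population per passage, p-values measure only the spread between these libraries, which may be technical. On simulated data the fit recovered genes changed by 2-fold, but called unchanged genes with few reads more often than its threshold allows. The tested members had at least 167 reads in each library. In the simulation few genes changed, all by 2-fold or more, whereas here most genes were called and no tested member differed by 2-fold. It therefore cannot show how reliable the calls of the members are.

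Library totals and whole reads were recovered from ratios of RPKM values with Python 3.11.15 (numpy 2.4.6, pandas 2.3.3, scipy 1.17.1, matplotlib 3.10.9), for 18113 of 18114 genes above 0 in at least 2 libraries. The recovered reads are the smallest whole numbers that fit. A factor common to all libraries could be hidden in them. The 95% Clopper-Pearson and conditional binomial intervals cover counting error only, as no molecular identifiers were used and several reads may stem from 1 molecule. A value of 3 reads corresponds to between 0.0243 and 0.0294 RPKM for Pou3f1. Means are over the 2 populations.

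The members and gene lists were chosen with earlier results of these data known. All members were named, and of each related list the E proteins, Pou3f3, Pou3f4, Tfap2c and the genes past 2-fold, or otherwise the 3 with the largest differences. Chd4, Smad1, Smad5, Smad6, Smad7, Kctd1, Kctd15, Cited1, Cdh1, Sox2, Hey2 as a Zeb target, Twist1 and the single markers were named after their values were seen. A further gene of the myelinating marker list is not reported here. Promoter sequences and their coordinates are from RefSeq (GRCr8), another assembly than that of the reads. Alternatives were 2 other scalings, a pseudocount of 0.1 RPKM, no filter, a minimum of 5 RPKM, other blocks, each library or population left out and, added after seeing the data, differences relative to genes of similar length and counts by ratio intervals.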

Additional observations from a re-analysis of the deposited data

How the results depend on the processing

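Across the alternatives to the number contrast, 6527 to 8829 genes and 6 to 8 members were called, and 0 members passed 2-fold. The genes past 2-fold went from 121 to 244 with a common sum and to 253 with a pseudocount of 0.1 RPKM. Of the members, Zeb1, Zeb2, Tfap2b, Id1, Id3 and Id4 kept their direction and call in every test that included them. Relative to genes of similar length, Id3 turned to -0.0033. Id2 turned to -0.065 with a common sum, -0.032 with median ratio scaling and -0.22 relative to genes of similar length. Pou3f2 and Id2 lost their calls in the fits named with them, and Pou3f2 also without the passage block (limma adjusted p = 0.0508). Tfap2a was called under both other scalings. Without a library, the number contrast has no residual degree of freedom with the passage block, so these fits were made without it, and the lone library is assumed to vary like the others.

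Between the passages 0 genes were called, against 1 gene with the replicate block and 0 members with it. Leaving out single libraries, which unbalances the numbers between the passages, gave 9 to 13 called genes (12 without passage 9 replicate 1, 9 without passage 9 replicate 2, 10 without passage 39 replicate 1, 13 without passage 39 replicate 2), and 0 members in each. The genes past 2-fold went from 1 to 2 with a common sum, 0 with a filter at 5 RPKM, 4 with 0.1 RPKM as pseudocount and between 13 and 17 with a library left out. The deviations of same-numbered libraries from their passage mean correlated at 0.943 over 11025 genes, which with 2 pairs is a hint from the data and not a pairing given by the labels. The members' passage differences kept their side of the threshold, uncalled, in all 89 values under other settings. Sizes and some directions changed with a library left out. Without passage 9 replicate 1 and without passage 9 replicate 2, Zeb1 went from 0.0069 to 0.28 and -0.27. In the same fits Id4 went from -0.0046 to -0.22 and 0.21. Member levels moved by more than 1 SD over the populations in 37 values and by less in 43, with the 10 of a common sum moved by the change of unit itself. Causes of these dependences were not tested. Depth limits Pou3f1, with 12 to 19 reads a library.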
